A study of Saccharomyces cerevisiae with 16 samples.

Results

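The 10 genes described here encode enzymes that remove reactive oxygen species in budding yeast, Saccharomyces cerevisiae: the thioredoxins TRX1 and TRX2, the peroxiredoxins TSA1, TSA2 and AHP1, the superoxide dismutases SOD1 and SOD2, the catalases CTT1 and CTA1, and the peroxidase GPX2. They were chosen by symbol and are 10 of the 6692 genes in the count table. RNA levels were measured by RNAseq and ribosome-protected fragments (footprints) by Riboseq, both from the same cell extracts. A wild-type (WT) strain and a strain whose translation initiation factor eIF4B, encoded by TIF3, lacks its N-terminal 40S-binding domain (∆ntd) were each grown in synthetic dextrose (SD) medium or in SD with 3% urea at 30°C to an OD600 of about 0.8. The labels give WT as BY4741. According to the study's strain list, both strains are MATa his3Δ1 leu2Δ0 ura3Δ0 met15Δ0 tif3Δ0 and live on a single-copy plasmid that carries HIS3, LEU2, URA3 and MET17 together with either TIF3 or the truncated allele, each with the native promoter and terminator and a C-terminal His6 tag, so that every eIF4B measured is plasmid-borne. There were 2 biological replicates, called cultures here, of each of the 4 groups, which gives 8 cultures and 16 libraries. The question was how RNA, footprints and translational efficiency (TE, footprints per RNA) of these enzymes differed between the strains and with urea.

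Superoxide, which leaks mainly from the respiratory chain, is turned into hydrogen peroxide by superoxide dismutases, a copper and zinc enzyme in the cytosol (SOD1) and a manganese enzyme in the mitochondrial matrix (SOD2). Hydrogen peroxide is then broken down by catalases or reduced by peroxiredoxins, whose catalytic cysteine is returned to its reduced form by thioredoxin, thioredoxin reductase and finally NADPH. In yeast the transcription factor Yap1, which is activated by peroxide, and the general stress factors Msn2 and Msn4, which bind the stress response element, control many of these genes.

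The family holds close pairs, and the sequences are shown because counts of near-identical genes could be mixed. All sequences were read from the RefSeq R64 genome, the build the labels name as sacCer3. Trx1 (103 residues) and Trx2 (104 residues) share 78.6% of 103 aligned residues and 73.5% of the bases that encode them, and the longest run of bases they have in common is 17. Tsa1 and Tsa2 (196 residues each) share 85.7% of residues and 78.4% of bases, with a longest common run of 14. The stretches over the active-site cysteines are printed 5′ to 3′ with the bases that differ within each pair in capitals.
TRX1 codons 27 to 36, chrXII:231906-231935, minus strand: gccacTtggtgCggTccatgtaaaatgatt
TRX2 codons 28 to 37, chrVII:913117-913146, minus strand: gccacAtggtgTggGccatgtaaaatgatt
TSA1 codons 44 to 53, chrXIII:220267-220296, plus strand: ttCAcTttCgtctgtccaacCgaAatCAtt
TSA2 codons 44 to 53, chrIV:1365504-1365533, minus strand: ttTTcAttTgtctgtccaacTgaGatTGtt
The thioredoxins differ at 3 of these 30 bases and the peroxiredoxins at 8. Each of the 10 genes has 1 coding exon, and 0.00% of the 28-base windows of any of them occurred in another gene, so footprint-sized reads that match exactly have a unique origin among the 10. The mismatches that the authors' alignment allowed are not given in the sources used here.

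The 500 bases before each start codon were searched for 3 short motifs on both strands. The Yap1 motif TTACTAA occurred upstream of 7 of the 10 genes, namely TRX2 and GPX2 with 2 matches each and TSA2, AHP1, SOD1, SOD2 and CTA1 with 1 each, and upstream of 11.8% of the 6006 genes searched. The related motif TGACTAA occurred upstream of TSA2 alone among the 10, and upstream of 6.0% of all genes searched. The core of the stress response element, AGGGG, occurred upstream of 8 of the 10 genes and of 34.1% of all genes searched. CTT1 and AHP1 had 3 such matches each, TSA1 and TSA2 had 2, and TRX1 had no match to any of the 3 motifs. The 2 Yap1 matches of TRX2 and the 3 stress element matches of CTT1, textbook targets of Yap1 and of Msn2 and Msn4, are shown with 7 flanking bases in the direction of the gene and the match in capitals. A match on the other strand reads as the reverse complement of the motif.
TRX2, chrVII:913431-913451, minus strand: tatactcTTAGTAAaggatgc
TRX2, chrVII:913395-913415, minus strand: tcttttcTTACTAAgcgcgtt
CTT1, chrVII:654249-654267, plus strand: tttttcaAGGGGatcaccg
CTT1, chrVII:654264-654282, plus strand: accggtaAGGGGccaagcg
CTT1, chrVII:654494-654512, plus strand: atcgtatCCCCTactgcta
A match describes these letters only and not a bound site.

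**Figure D1:**
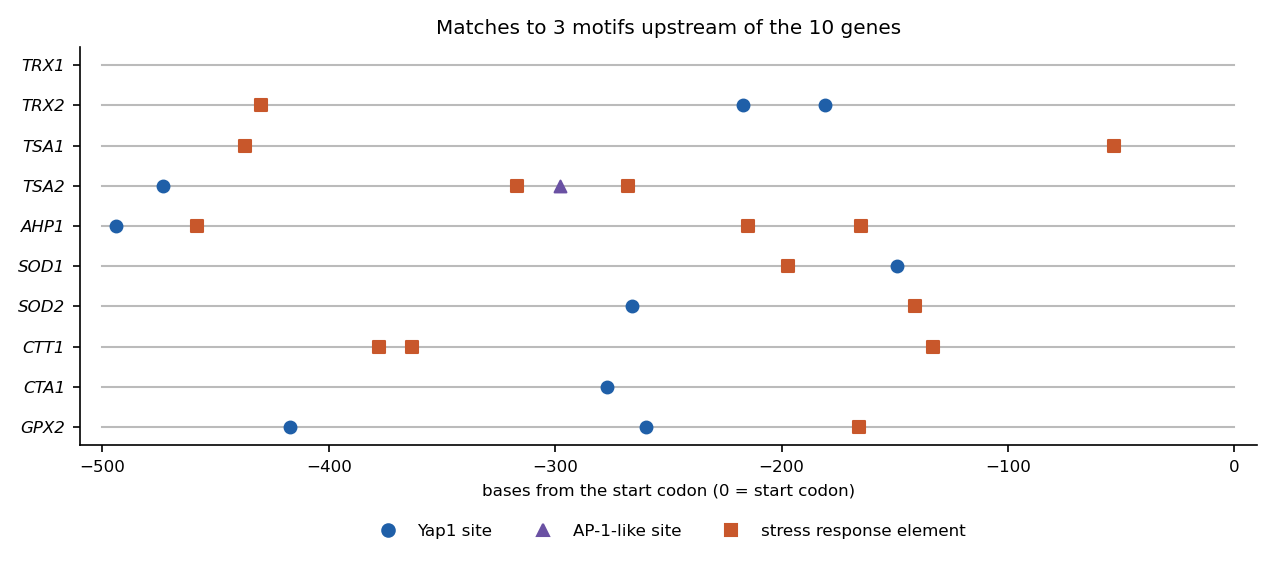
Positions of the matches in the 500 bases before the start codon of each of the 10 genes (x axis, bases from the start codon; circles, Yap1 motif; triangle, AP-1-like motif; squares, stress response element core). CTT1 carries stress elements starting 378, 363 and 133 bases before its start codon and no Yap1 match, and the TRX1 line is empty.

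Library totals ran from 3067506 to 17380262 counts in Riboseq and from 1888481 to 5169546 in RNAseq. TIF3, read from the plasmid copy in both strains, was counted in every library (1949 to 3286 CPM, counts per 1000000, in RNAseq and 2411 to 5210 CPM in Riboseq), and counts per whole gene cannot show the deleted codons. The 6 a-specific genes summed to 1843 to 2713 CPM in RNAseq, against 18.5 to 31.6 CPM for 4 alpha-specific genes and 11.3 to 23.0 CPM for 4 meiotic genes. The 2 Riboseq libraries of ∆ntd with urea stand apart from each other: their biological coefficient of variation was 0.241, against 0.0409 to 0.0563 in the other Riboseq groups and 0.0325 to 0.0568 in RNAseq. Since all groups share 1 estimate of the spread, this widens the errors of footprint and TE comparisons without that group. In comparisons with that group the shared estimate is narrower than its own spread. Footprint calls over all genes with urea in ∆ntd were 892 rising and 607 falling. With a variance for each group (limma voom) they were 562 and 159. Footprint and TE values of ∆ntd with urea are therefore given below per culture. CPM values were scaled by TMM, which sets most genes to no change. With library totals alone the median RNA change of all genes between ∆ntd and WT moved by 0.28 in SD and 0.33 in urea on the log2 scale, and the median TE change by -0.23 in SD and -0.59 in urea, so the calls this scaling decides are named with the gene. In shares of a library, fewer transcripts per cell cannot be told apart from more of the other RNA. For the same reason TE is relative to the other genes. The paper reported a lower polysome to monosome ratio in ∆ntd than in WT, and a further drop with urea. Such a shift shared by most genes does not show in these TE values.

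The 10 enzymes span a wide range of expression. Per coding kb, RNA in WT in SD was highest for AHP1 (4536 ± 38.7 CPM per kb, mean ± standard deviation, n = 2), SOD1 (4163 ± 10.3) and TSA1 (2531 ± 45.0), followed by TRX1 (982 ± 42.2), TRX2 (956 ± 8.32), SOD2 (295 ± 25.5), GPX2 (127 ± 1.85), CTT1 (31.1 ± 2.26), TSA2 (27.9 ± 3.65) and CTA1 (2.10 ± 0.0697). TRX1 and TRX2, and CTT1 and TSA2, did not differ beyond their spread in this order. The median of the genes tested for TE was 45.0 CPM per kb, so 7 of the 10 lay above it. AHP1, SOD1 and TSA1 were the top 3 in every library and together made up 78.1% to 88.9% of the summed RNA of the 10 genes and 80.4% to 87.7% of their summed footprints. The 10 genes took 0.464% to 0.662% of all RNAseq counts and 0.911% to 1.01% of all Riboseq counts. In WT in SD the TE of all 9 genes tested exceeded the median of 0.588 over 5251 genes, from 0.714 ± 0.0378 for GPX2 (percentile 62.7) to 1.63 ± 0.164 for TRX2 (percentile 97.2).

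**Figure D2:**
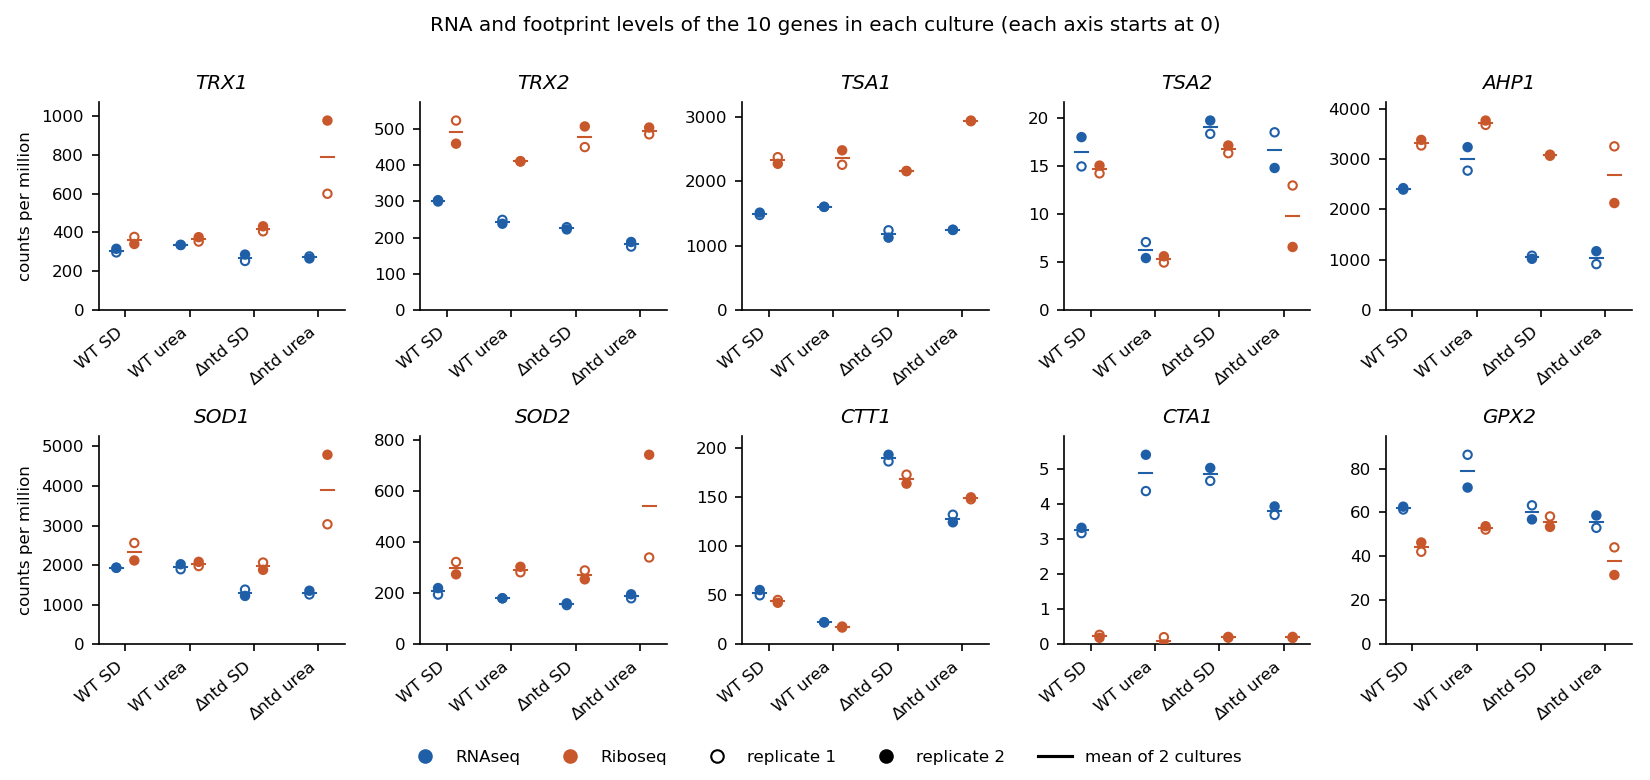
Levels of the 10 genes in CPM (y axis, linear, from 0) in the 4 groups (x axis), with each culture as a point (open, replicate 1; filled, replicate 2) and each mean as a bar, RNAseq in blue and Riboseq in orange. RNA of AHP1 lies at 1171 CPM or below in the ∆ntd cultures and at 2394 CPM or above in the WT cultures, while RNA and footprints of CTT1 are higher in every ∆ntd culture than in any WT culture, and the ∆ntd urea footprints of TRX1, SOD1 and SOD2 lie far apart.

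Without urea, loss of the eIF4B N-terminal domain was accompanied by less RNA of most of the abundant enzymes and more RNA of the catalase CTT1. In RNAseq, CTT1 rose and AHP1, SOD1, TRX2, SOD2, TSA1 and TRX1 fell in ∆ntd, the last of these with the other sign under library totals, whereas TSA2, GPX2 and CTA1 did not pass (edgeR quasi-likelihood test, Benjamini-Hochberg adjusted p under 0.05 over all genes). The background was 17.5% of 5486 genes tested rising and 19.3% falling, so 6 of 10 falling is above that share and 1 of 10 rising is not. The median RNA change of the 10 genes was -0.26 on the log2 scale, against 0.02 for all genes. In footprints CTT1 rose and none of the other 8 genes tested passed, beside 3.67% of 5286 genes rising and 5.54% falling, and the median change was -0.04. In TE, AHP1 rose and none fell, beside 3.20% of 5251 genes rising and 3.29% falling, and the median TE change of the 9 genes was 0.33, against -0.01 for all genes. With library totals 1 RNA change, that of CTT1, passed upwards and 2, those of AHP1 and SOD1, downwards, beside 46.5% of all genes rising and 7.86% falling. Leaving out either ∆ntd urea culture, which narrows the spread, 4 of the 9 passed in footprints (CTT1, GPX2 and TRX1 up, SOD1 down) and 4 in TE (AHP1, TRX1, TRX2 and SOD1, all up). In these fits 38.6% and 38.5% of all genes passed in footprints and 23.1% in TE, so 4 of 9 in footprints is near the background. Under library totals no TE change passed.

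In urea CTT1 was again higher and AHP1 RNA lower in ∆ntd, and TE relative to other genes was higher for most of the genes tested. RNA of CTT1 and TSA2 was higher in ∆ntd, and RNA of AHP1, SOD1, GPX2, TRX2, TSA1 and TRX1 was lower, the last of these with the other sign under library totals; the background was 21.5% of genes rising and 22.4% falling. Footprints of CTT1, TRX1, SOD1 and TSA1 rose and none fell, beside 17.9% of genes rising and 15.1% falling. With library totals 3 RNA changes were upwards (CTT1, TSA2, SOD2) and 2 downwards (AHP1, SOD1), beside 50.3% and 9.46% of all genes, and 3 footprint changes were upwards (CTT1, TRX1, SOD1) and 2 downwards (AHP1, GPX2), beside 10.1% and 25.5%. TE rose for SOD1, TRX1, AHP1, TRX2, TSA1 and CTT1, the last with the other sign under library totals, and fell for none, beside 15.3% of genes rising and 10.1% falling. The median TE change of the 9 genes was 0.69, against 0.04 for all genes. With library totals the median over the 9 genes was 0.10 against -0.55 for all genes, and 2 of the 6 TE changes passed, those of SOD1 and TRX1, beside 4.09% of all genes rising and 40.5% falling. Leaving out 1 urea culture leaves 1 culture in that group, and the count of footprint changes moved in these fits. It was higher without either ∆ntd urea culture and lower without either WT urea culture. Calls over all genes moved in the same directions.

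In WT, urea changed RNA of 6 of the 10 genes, footprints of 2 of the 9 tested and TE of none. RNA of AHP1 and GPX2 rose and RNA of TSA2, CTT1, TRX2 and SOD2 fell, beside 16.1% of genes rising and 12.4% falling. Footprints of TSA2 and CTT1 fell and none rose, beside 4.73% of genes rising and 4.48% falling; the call for TSA2 was lost when any culture outside the ∆ntd urea group was left out, and without either ∆ntd urea culture 4 footprint changes passed, beside 31.0% and 30.9% of all genes. The RNA rise of GPX2 did not pass under library totals. No TE change passed among the 9 genes, by edgeR, DESeq2 or limma voom, and none had an unadjusted p under 0.05; over all genes tested 0.114% rose and 0.0190% fell.

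In ∆ntd, urea changed RNA of 3 of the 10 genes and footprints of 5 of the 9 tested. RNA of SOD2 rose and RNA of CTT1 and TRX2 fell, beside 13.4% of genes rising and 12.8% falling. Footprints of SOD1, SOD2, TRX1 and TSA1 rose and those of GPX2 fell, beside 16.9% of genes rising and 11.5% falling. TE of SOD1 and TRX1 rose and none fell, beside 7.27% of genes rising and 4.27% falling. With library totals 2 footprint changes were upwards (SOD1, TRX1) and 4 downwards (TSA2, GPX2, CTT1, TRX2), beside 6.05% of all genes rising and 39.3% falling. When only these groups were fitted, 0 of the 9 genes passed in either measure. Of all genes, 53 rose and 62 fell of 5220 in footprints, and 9 and 6 of 5167 in TE. So 0 of 9 is near the background. Without either ∆ntd SD culture no call held, in fits where calls over all genes also became few. The log2 changes of SOD1 and TRX1 stayed close to their values, as given with each gene. Without ∆ntd urea replicate 1, 7 footprint and 8 TE changes passed, beside 58.1% and 39.4% of all genes, and without replicate 2, 5 and 4 passed, beside 38.8% and 14.6%.

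The test of the difference itself, the urea response in ∆ntd minus that in WT, passed in RNAseq for TSA2, CTT1, SOD2 (higher) and AHP1 (lower), beside 4.39% of genes higher and 6.07% lower. It passed in footprints for SOD1 and CTT1, both higher, beside 4.92% of genes higher and 3.44% lower. It passed in TE for none of the 9 genes, 4 of which had an unadjusted p under 0.05, beside 0.267% of genes higher and 0.343% lower. By DESeq2 none of the 4 RNA differences passed, and without WT SD replicate 2 none did either; without ∆ntd SD replicate 1, ∆ntd urea replicate 1 or WT urea replicate 2, 2 passed. Without any single culture outside the ∆ntd urea group the footprint differences of SOD1 and CTT1 did not pass. Calls over all genes also became few in those fits, and many without either ∆ntd urea culture. Such fits leave 1 culture in a group, so their calls say little about single genes. Over all alternatives the footprint difference ran from 0.82 to 1.48 for SOD1 and from 0.82 to 1.18 for CTT1.

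**Figure D3:**
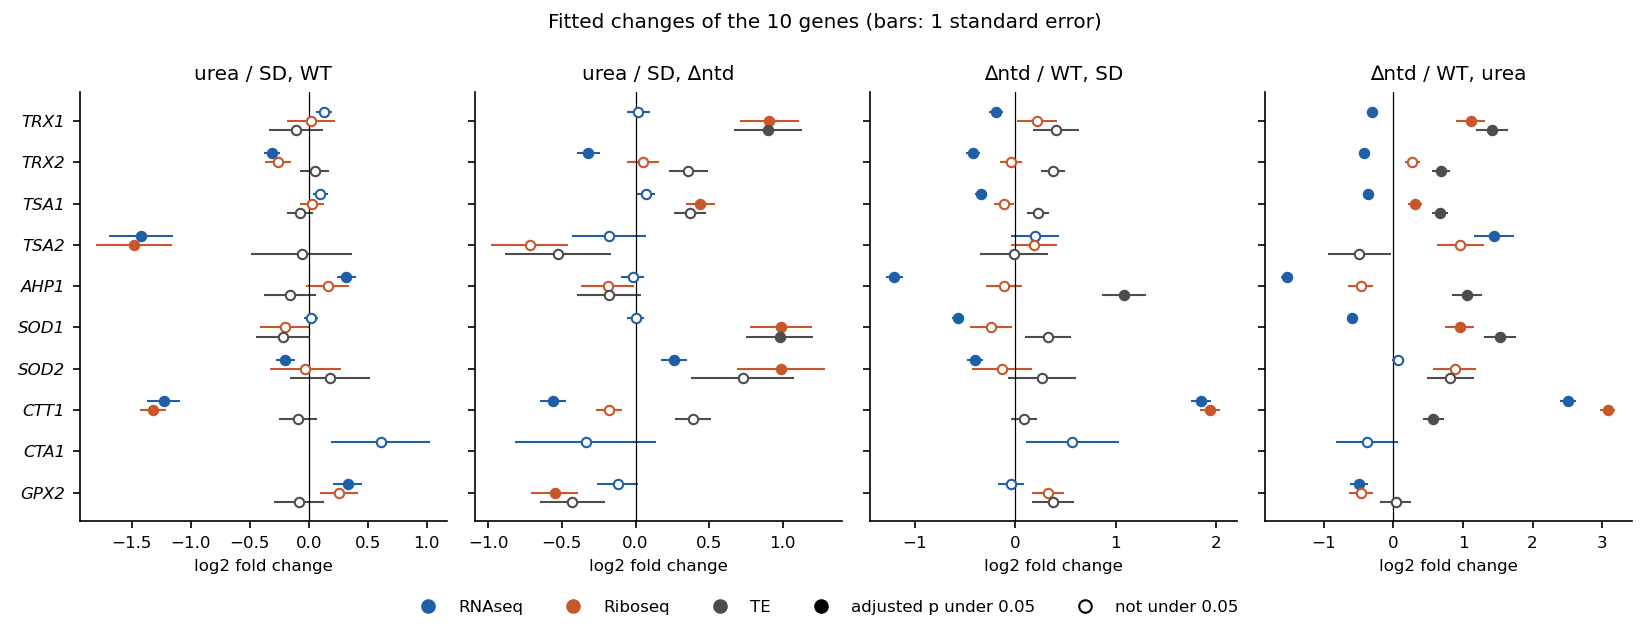
Fitted log2 fold changes of the 10 genes in the 4 pairwise comparisons (x axis, own scale in each panel; bars, 1 standard error; filled points, adjusted p under 0.05), for RNAseq (blue), Riboseq (orange) and TE (grey). AHP1 has an RNA change of -1.20 and a footprint change of -0.11 between the strains in SD, while the RNA and footprint changes of CTT1, 1.85 and 1.94, lie together.

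AHP1 encodes a peroxiredoxin that reduces alkyl hydroperoxides in preference to hydrogen peroxide. Its RNA stood at 2394 and 2423 CPM in the WT SD cultures, at 2771 and 3237 CPM in WT with urea, at 1082 and 1020 CPM in ∆ntd in SD, and at 914 and 1171 CPM in ∆ntd with urea. The strains did not overlap in either medium. Relative to WT, AHP1 RNA fell by 1.20 ± 0.08 on the log2 scale in SD (SE, edgeR adjusted p = 9.12e-14), to 0.437 of the WT level, and by 1.53 ± 0.08 in urea (adjusted p = 1.06e-16). Both changes passed under every alternative tried, from -1.24 to -0.91 in SD and from -1.70 to -1.21 in urea. Its footprints stood at 3270 and 3381 CPM in WT in SD, 3679 and 3765 CPM in WT with urea, 3066 and 3088 CPM in ∆ntd in SD, and 3253 and 2127 CPM in ∆ntd with urea. In SD the ∆ntd footprints lay just below those of WT without overlap, and the fitted change was -0.11 ± 0.18 (adjusted p = 0.769).

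TE of AHP1 was 1.37 and 1.40 in WT in SD, 1.33 and 1.16 in WT grown with urea, 2.83 and 3.03 in ∆ntd in SD, and 3.56 and 1.82 in ∆ntd with urea. It rose 2.12-fold in ∆ntd in SD (log2 1.08 ± 0.22, edgeR adjusted p = 0.0113) and 2.08-fold in urea (1.06 ± 0.22, adjusted p = 0.0036). In SD the mean of 2.93 ± 0.137 was at percentile 99.4 of all genes tested, against percentile 94.4 in WT. The SD call was lost without any 1 of the 4 SD cultures (log2 1.04 to 1.14) and under library totals (0.85, edgeR adjusted p = 0.055). Without ∆ntd urea replicate 1 or 2 the SD change was 1.09. The urea call was lost under library totals (0.49, adjusted p = 0.142), with only the 2 groups fitted (1.04, adjusted p = 0.0528) and without WT urea replicate 2 (0.96, adjusted p = 0.0603). Within WT, AHP1 RNA rose by 0.32 ± 0.08 with urea (adjusted p = 0.00144; 0.20 and adjusted p = 0.0843 without WT urea replicate 2), and the response in ∆ntd was lower by 0.34 ± 0.11 (adjusted p = 0.0478), a difference that did not pass under 8 of 14 alternatives, library totals among them (-0.30, adjusted p = 0.0558).

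CTT1 encodes the cytosolic catalase T, a textbook target of Msn2 and Msn4. Its RNA stood at 49.9 and 55.3 CPM in WT in SD, 22.2 and 22.6 CPM in WT with urea, 186 and 193 CPM in ∆ntd in SD, and 132 and 124 CPM in ∆ntd with urea. The order of the 4 groups was the same in footprints, at 45.2 and 42.3, 17.1 and 18.1, 173 and 163, and 148 and 150 CPM, and no 2 groups overlapped in either measure. In SD, CTT1 was 3.60-fold higher in ∆ntd in RNA (log2 1.85 ± 0.10, edgeR adjusted p = 1.17e-15) and 3.84-fold higher in footprints (1.94 ± 0.10, adjusted p = 5.99e-05). In urea it was 5.71-fold higher in RNA (2.51 ± 0.12, adjusted p = 2.35e-17) and 8.45-fold higher in footprints (3.08 ± 0.11, adjusted p = 1.08e-05). These 4 differences passed under every alternative tried. Urea lowered CTT1 in WT, by 1.23 ± 0.14 in RNA (adjusted p = 1.77e-08) and 1.32 ± 0.11 in footprints (adjusted p = 0.000475), and in ∆ntd by 0.56 ± 0.09 in RNA (adjusted p = 1.86e-05), where the footprint change was -0.18 ± 0.09 (adjusted p = 0.189).

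The urea response of CTT1 differed between the strains by 0.67 ± 0.17 in RNA (adjusted p = 0.00839; 0.0659 without WT SD replicate 2) and by 1.14 ± 0.15 in footprints (adjusted p = 0.0107; 0.0692 to 0.113 without any single culture of the other 3 groups). TE of CTT1 lay at 0.905 and 0.765 in WT in SD, 0.770 and 0.803 in WT grown with urea, 0.928 and 0.847 in ∆ntd in SD, and 1.12 and 1.21 in ∆ntd with urea. WT in SD overlapped WT with urea and ∆ntd in SD, and ∆ntd with urea lay above all of them. TE in urea was 1.48-fold higher in ∆ntd (log2 0.57 ± 0.15, adjusted p = 0.0151), a call that did not hold without either WT urea culture (0.53 and 0.59, adjusted p = 0.147 and 0.104) or without ∆ntd urea replicate 2 (0.50, adjusted p = 0.0577), and that had the other sign under library totals (-0.03, adjusted p = 0.96). In RNA per coding kb, CTT1 moved from percentile 34.6 of the genes tested for TE in WT in SD to 77.0 in ∆ntd in SD, and it stood at 9.7 in WT with urea.

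CTA1, the peroxisomal catalase A that is induced on fatty acids and repressed by glucose, was close to the detection limit in this glucose medium. It had 8 to 24 RNAseq counts per library, or 3.18 to 5.42 CPM, and 0 to 5 Riboseq counts. The library with 0 counts, WT urea replicate 2, allows up to 3 counts or 0.978 CPM. CTA1 did not enter the footprint and TE tests, and its RNA changes in the 4 pairwise comparisons were between -0.38 and 0.61, with adjusted p from 0.31 to 0.65. The ratio of CTT1 to CTA1 therefore cannot be followed in footprints at this depth.

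RNA of SOD1 was lower in ∆ntd in both media and RNA of SOD2 in SD, and the footprints of both were uneven in ∆ntd with urea. SOD1 RNA stood at 1939 and 1933 CPM in WT in SD, 1897 and 2024 CPM in WT with urea, 1383 and 1224 CPM in ∆ntd in SD, and 1261 and 1355 CPM in ∆ntd with urea. The strains did not overlap, and SOD1 RNA fell by 0.57 ± 0.06 in SD (edgeR adjusted p = 9.41e-09) and 0.59 ± 0.06 in urea (adjusted p = 3.69e-09) relative to WT, under every alternative tried. Its footprints were 2561 and 2119, 1978 and 2084, 2067 and 1883, and 3033 and 4789 CPM in the same order of groups. Both ∆ntd urea cultures lay above all others, by amounts that differed between them. Footprints rose 1.98-fold with urea in ∆ntd (log2 0.99 ± 0.21, adjusted p = 0.0128), 1.93-fold over WT in urea (0.95 ± 0.21, adjusted p = 0.0108) and by 1.19 ± 0.29 more than in WT (adjusted p = 0.0465).

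SOD1 had a TE of 1.32 and 1.10 in WT in SD, 1.04 and 1.03 in WT grown with urea, 1.50 and 1.54 in ∆ntd in SD, and 2.40 and 3.53 in ∆ntd with urea. TE was 2.89-fold the WT value in ∆ntd in urea (log2 1.53 ± 0.23, adjusted p = 0.000339), the largest TE change among the 9 genes and past the threshold under all alternatives, at 0.91 under library totals. With urea in ∆ntd it rose 1.97-fold (0.98 ± 0.23, adjusted p = 0.0166), at 1.22 without ∆ntd urea replicate 1, 0.66 without replicate 2 and 0.59 under library totals. The SOD1 calls for urea in ∆ntd did not hold without either ∆ntd SD culture (footprints 1.05 and 0.92, adjusted p = 0.0851 and 0.105; TE 0.95 and 0.99, adjusted p = 0.157 and 0.127), the footprint call over WT not without either WT urea culture (0.91 and 0.98, adjusted p = 0.0917 and 0.0717), and the difference in response not without any single culture of the other 3 groups (1.05 to 1.32, adjusted p = 0.117 to 0.199). Without ∆ntd urea replicate 1 or 2 that difference was 1.48 or 0.82, in fits that keep 1 culture of the uneven group and so cannot show its spread.

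SOD2 RNA lay at 194 and 220 CPM in WT in SD, 180 and 180 CPM in WT with urea, 153 and 160 CPM in ∆ntd in SD, and 180 and 196 CPM in ∆ntd with urea. It fell by 0.40 ± 0.08 in ∆ntd in SD (edgeR adjusted p = 0.000217; -0.12 and adjusted p = 0.229 under library totals) and by 0.20 ± 0.08 with urea in WT (adjusted p = 0.0447), and it rose by 0.26 ± 0.09 with urea in ∆ntd (adjusted p = 0.0261). The difference between the responses was 0.46 ± 0.12 (adjusted p = 0.00821; 0.37 and 0.0885 without WT SD replicate 2). The call in WT was lost without WT SD replicate 2 (-0.11, adjusted p = 0.462) or either WT urea culture (adjusted p = 0.126 and 0.172), and the call in ∆ntd without ∆ntd SD replicate 1 (0.23, adjusted p = 0.158) or ∆ntd urea replicate 2 (0.21, adjusted p = 0.159) and under library totals (0.18, adjusted p = 0.124). SOD2 footprints were 322 and 274, 282 and 303, and 289 and 254 CPM in the first 3 groups and 339 and 740 CPM in ∆ntd with urea, so that the fitted rise of 0.99 ± 0.30 (adjusted p = 0.0444) was 1.45 without replicate 1 and 0.33 without replicate 2. This call did not hold without any single culture of the other 3 groups (adjusted p = 0.0749 to 0.209) or under library totals (0.51, adjusted p = 0.114). TE of SOD2 was 1.65 and 1.24, 1.56 and 1.69, 1.88 and 1.58, and 1.89 and 3.79, and no TE change passed.

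The cytosolic thioredoxins, which reduce peroxiredoxins and ribonucleotide reductase, had nearly equal RNA in WT in SD and parted with urea. TRX1 RNA was 297 and 316 CPM in WT in SD, 336 and 335 CPM in WT with urea, 253 and 286 CPM in ∆ntd in SD, and 277 and 266 CPM in ∆ntd with urea. It fell by 0.31 ± 0.07 in ∆ntd in urea (edgeR adjusted p = 0.000853) and by 0.19 ± 0.07 in SD (adjusted p = 0.0397), with the other sign under library totals in both media (0.02 and 0.09), and the SD call did not hold without ∆ntd SD replicate 1 (-0.10, adjusted p = 0.407) or either WT SD culture (-0.23 and -0.15, adjusted p = 0.0579 and 0.253). TRX2 RNA was 299 and 303, 249 and 238, 228 and 222, and 175 and 188 CPM in the same order, with no overlap between groups. It fell in all 4 comparisons, by 0.31 ± 0.07 in WT exposed to urea (adjusted p = 0.000599), by 0.32 ± 0.08 in ∆ntd exposed to urea (adjusted p = 0.00278; -0.26 and 0.0623 without ∆ntd urea replicate 1), and in ∆ntd by 0.42 ± 0.07 in SD (adjusted p = 2.04e-05) and 0.42 ± 0.08 in urea (adjusted p = 2.7e-05); under library totals the strain differences were -0.13 and -0.10 and did not pass.

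The ratio of TRX1 to TRX2 RNA per coding length, which no scaling between libraries can move, was 1.00 and 1.05 in WT in SD, 1.37 and 1.42 in WT grown with urea, 1.12 and 1.30 in ∆ntd in SD, and 1.60 and 1.43 in ∆ntd with urea. It was higher with urea than without in both strains, without overlap. In footprints the ratio was 0.729 and 0.750, 0.868 and 0.927, 0.912 and 0.861, and 1.25 and 1.96, so that TRX1 exceeded TRX2 in ∆ntd with urea alone.

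TRX1 footprints were 377 and 341, 353 and 376, and 406 and 431 CPM in the first 3 groups and 599 and 976 CPM in ∆ntd with urea. They rose 1.88-fold with urea in ∆ntd (log2 0.91 ± 0.20, edgeR adjusted p = 0.0155) and 2.16-fold over WT in urea (1.11 ± 0.21, adjusted p = 0.00532). Without ∆ntd urea replicate 1 and 2 the first of these was 1.23 and 0.52, in fits that keep 1 culture of the uneven group and so cannot show its spread. TRX1 TE was 1.27 and 1.08, 1.05 and 1.12, 1.60 and 1.51, and 2.17 and 3.67, and the 2 strains did not overlap in either medium. The TE change over WT was 1.42 ± 0.23 in urea (adjusted p = 0.000632), past the threshold under every alternative, and 0.41 ± 0.23 in SD (adjusted p = 0.33). The TE change with urea in ∆ntd, 0.90 ± 0.23 (adjusted p = 0.0243), passed under 7 of 15 alternatives, and was lost without any single culture of the other 3 groups (0.85 to 0.94, adjusted p = 0.0543 to 0.17) and under library totals (0.51, adjusted p = 0.0518). The footprint call for urea in ∆ntd was lost without either ∆ntd SD culture (0.87 and 0.96, adjusted p = 0.119 and 0.095) and with only these groups fitted (0.87, adjusted p = 0.101). The footprint call over WT in urea was lost without WT urea replicate 1 alone (1.07, adjusted p = 0.0597).

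TRX2 footprints were 522 and 458, 410 and 409, 449 and 506, and 484 and 503 CPM, and no change passed. Its TE was 1.74 and 1.51, 1.65 and 1.72, 1.96 and 2.28, and 2.76 and 2.68, with both ∆ntd groups above both WT groups. The TE difference in urea was 1.62-fold (log2 0.69 ± 0.13, adjusted p = 0.00143; 0.10 and 0.563 under library totals). In SD it was 0.38 ± 0.12 (edgeR adjusted p = 0.096), and 0.38 without ∆ntd urea replicate 1 or 2.

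TSA1, the main cytosolic peroxiredoxin, had the smallest variation of its group means among the 9 genes tested for TE, a root mean square of 0.173 on the log2 scale. Its RNA was 1477 and 1514 CPM in WT in SD, 1605 and 1603 CPM in WT with urea, 1240 and 1126 CPM in ∆ntd in SD, and 1245 and 1249 CPM in ∆ntd with urea. It fell by 0.34 ± 0.06 in ∆ntd in SD (edgeR adjusted p = 3.35e-05) and 0.36 ± 0.06 in urea (adjusted p = 7.89e-06), and by 0.05 and 0.04 without a call under library totals. Footprints were 2375 and 2272, 2257 and 2481, 2161 and 2158, and 2943 and 2933 CPM, so that in this gene the 2 ∆ntd urea libraries lay close together and above the rest. The rise with urea in ∆ntd was 1.36-fold (log2 0.44 ± 0.10, adjusted p = 0.0172; 0.44 with adjusted p = 0.129 and 0.123 without ∆ntd SD replicate 1 and 2; 0.01 under library totals). The rise over WT in urea, 0.31 ± 0.10 (adjusted p = 0.0483), passed under 4 of 15 alternatives: it was lost without any single culture of the other 3 groups (0.25 to 0.38, adjusted p = 0.0933 to 0.268), and under library totals it was 0.04. TE was 1.61 and 1.50, 1.41 and 1.55, 1.74 and 1.92, and 2.36 and 2.35, with a difference of 0.67 ± 0.11 between the strains in urea (adjusted p = 0.000837; 0.08 and 0.587 under library totals).

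TSA2, a stress-induced near-copy of TSA1, was expressed far below it and fell with urea in WT. Its RNA was 14.9 and 18.0 CPM in WT in SD, 7.08 and 5.42 CPM in WT with urea, 18.3 and 19.7 CPM in ∆ntd in SD, and 18.5 and 14.8 CPM in ∆ntd with urea. WT with urea lay below the other 3 groups, with 21 and 24 counts, and the other groups lay close together. RNA was 0.373 of its SD level with urea in WT (log2 -1.42 ± 0.27, edgeR adjusted p = 0.000125), and 2.74-fold the WT level in ∆ntd in urea (1.45 ± 0.29, adjusted p = 0.000116). Both passed under every alternative tried. The urea response differed between the strains by 1.25 ± 0.37 (adjusted p = 0.0284), a call lost without WT SD replicate 2 (1.11, adjusted p = 0.126), WT urea replicate 2 (1.03, adjusted p = 0.168), ∆ntd SD replicate 1 (1.21, adjusted p = 0.0806) or ∆ntd urea replicate 1 (1.08, adjusted p = 0.143).

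TSA2 footprints were 14.2 and 15.0, 4.95 and 5.61, 16.3 and 17.1, and 13.0 and 6.57 CPM. They fell by 1.48 ± 0.32 with urea in WT (adjusted p = 0.027; 0.0688 to 0.248 without any single culture of the first 3 groups). TE was 0.952 and 0.836, 0.700 and 1.03, 0.890 and 0.869, and 0.701 and 0.444, and no TE change passed. The ratio of TSA1 to TSA2 RNA per coding length was 98.9 and 84.2 in WT in SD, 227 and 296 in WT grown with urea, 67.7 and 57.2 in ∆ntd in SD, and 67.3 and 84.5 in ∆ntd with urea, so that in RNA WT with urea lay apart from all other cultures. In footprints the ratio was 167 and 151, 456 and 443, 132 and 126, and 227 and 446, and ∆ntd urea replicate 2 lay within the range of WT with urea.

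GPX2, a glutathione peroxidase homologue that is a Yap1 target, had RNA of 61.4 and 62.6 CPM in WT in SD, 86.2 and 71.3 CPM in WT with urea, 63.2 and 56.8 CPM in ∆ntd in SD, and 53.0 and 58.6 CPM in ∆ntd with urea. The WT urea cultures lay above the rest. RNA rose by 0.33 ± 0.12 with urea in WT (edgeR adjusted p = 0.0304; lost without WT SD replicate 1 or 2, adjusted p = 0.147 and 0.107, without WT urea replicate 1, 0.20 and adjusted p = 0.316, and under library totals, 0.21 and adjusted p = 0.175) and was lower by 0.49 ± 0.13 in ∆ntd in urea (adjusted p = 0.00217; -0.39 and 0.0578 without ∆ntd urea replicate 1; -0.16 and 0.282 under library totals). Its footprints were 42.1 and 46.4, 52.2 and 53.8, 58.2 and 53.4, and 44.1 and 31.6 CPM. They fell by 0.55 ± 0.16 with urea in ∆ntd (adjusted p = 0.0383), a call lost without any single culture of the other 3 groups (-0.61 to -0.49, adjusted p = 0.072 to 0.191). TE was 0.687 and 0.740, 0.605 and 0.754, 0.920 and 0.940, and 0.832 and 0.538, and no TE change passed.

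**Figure D4:**
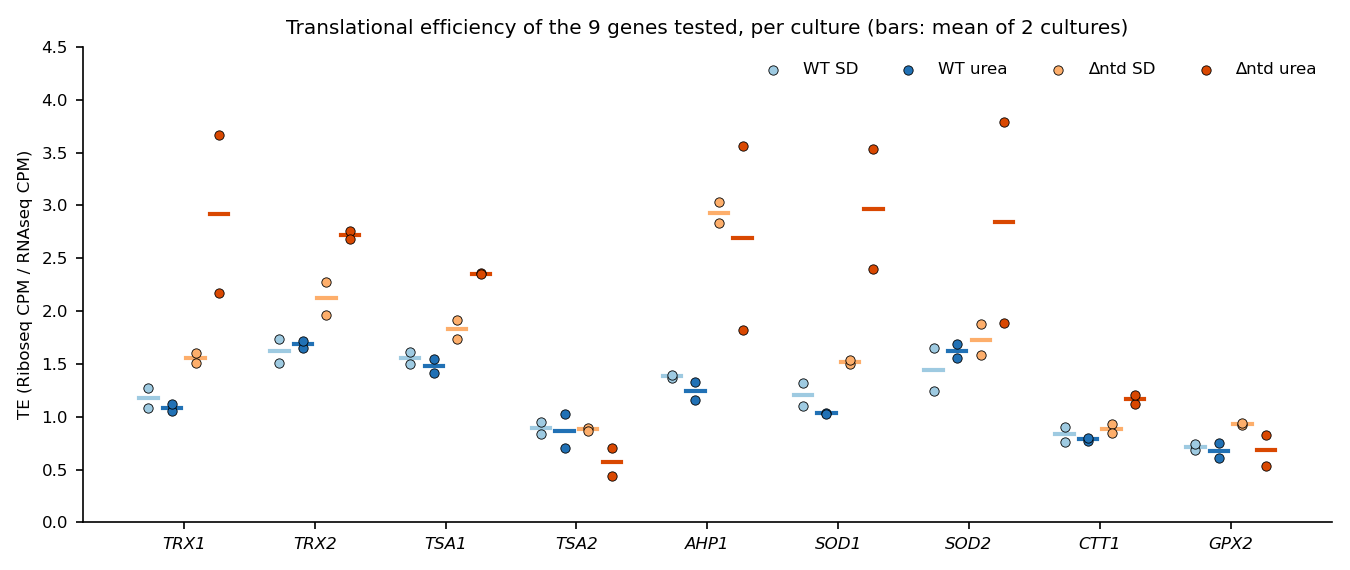
TE (y axis, Riboseq CPM over RNAseq CPM, from 0) of the 9 genes tested in each culture (points, coloured by group) with the mean of 2 cultures as a bar. In SD the ∆ntd points of AHP1 (2.83 and 3.03) lie far above those of WT (1.37 and 1.40), and in ∆ntd with urea the pairs of TRX1, AHP1, SOD1 and SOD2 are wide while those of TRX2, TSA1 and CTT1 are narrow.

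The genes around these enzymes moved in both directions. Of 25 reductants and other redox enzymes, 24 were tested in RNAseq, of which 2 rose and 7 fell in ∆ntd in SD and 9 rose and 9 fell in urea, beside 17.5% of all genes rising and 19.3% falling in SD and 21.5% and 22.4% in urea. With library totals these counts were 9 rising and 3 falling in SD and 12 and 5 in urea, where 46.5% of all genes rose and 7.86% fell in SD and 50.3% and 9.46% in urea. Their largest changes were in GPX1, a glutathione peroxidase homologue (RNA, ∆ntd over WT in urea, log2 2.49 ± 0.44, edgeR adjusted p = 2.58e-05), CCP1, the mitochondrial cytochrome c peroxidase (footprints, urea in ∆ntd, 1.53 ± 0.16, adjusted p = 0.000868), and MXR1, a methionine sulfoxide reductase (RNA, ∆ntd over WT in urea, -1.45 ± 0.16, adjusted p = 5.38e-09). The GPX1 value rests on few RNAseq counts, 3 and 10 in WT with urea against 27 and 18 in ∆ntd with urea. GTT2, a glutathione transferase, had the largest fitted TE change of this list, with urea in ∆ntd (-2.93 ± 0.60, adjusted p = 0.0101), but on 13 and 15 footprint counts in SD against 2 and 1 with urea, and it passed under 10 of 14 alternatives.

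Among 9 genes of NADPH supply, which feeds thioredoxin and glutathione reductases, 6 fell and 1 rose in RNA in ∆ntd in both media. Over all genes 19.3% fell and 17.5% rose in SD, and 22.4% and 21.5% in urea. The median change of the list was -0.70 in SD and -1.06 in urea (-0.42 and -0.73 with library totals). With library totals 6 fell and 2 rose in SD, and 6 and 3 in urea. Under that scaling 7.86% of all genes fell and 46.5% rose in SD, and 9.46% and 50.3% in urea. GND1, the main 6-phosphogluconate dehydrogenase, fell by 1.89 ± 0.06 in urea (edgeR adjusted p = 5.75e-22), ZWF1, glucose-6-phosphate dehydrogenase, by 1.30 ± 0.09 (adjusted p = 3.58e-14), and ALD6, cytosolic acetaldehyde dehydrogenase, by 1.35 ± 0.06 in SD (adjusted p = 2.03e-17). GND2, the minor copy of GND1, rose in footprints in urea (1.89 ± 0.16, adjusted p = 0.000198). In footprints 4 of the 9 fell and 1 rose in ∆ntd in SD (median -0.53), beside 5.54% and 3.67% of all genes. In TE 2 rose and none fell (median 0.32), beside 3.20% and 3.29%. With library totals no TE change passed and the median was 0.09, beside 1.56% of all genes rising and 9.35% falling.

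Of 6 regulators, 3 rose in RNA in ∆ntd in SD, 4 rose in urea, and none fell in either. Over all genes 17.5% rose and 19.3% fell in SD, and 21.5% and 22.4% in urea. With library totals 4 rose in SD and 5 in urea, beside 46.5% and 50.3% of all genes rising. MSN4 RNA rose by 1.33 ± 0.12 (edgeR adjusted p = 4.74e-11) and RNA of SKN7, a partner of Yap1, by 0.64 ± 0.13 (adjusted p = 0.000132) in urea. MSN2 fell in TE in SD by 0.80 ± 0.22 (adjusted p = 0.0446), and CAD1, a relative of YAP1, rose in footprints with urea in ∆ntd by 0.76 ± 0.18 (adjusted p = 0.0172; 0.32 and adjusted p = 0.121 under library totals). The MSN2 value passed under 8 of 15 alternatives and the CAD1 value under 10 of 15. Of 5 other Yap1-regulated genes tested, 1 rose and 1 fell in RNA in ∆ntd in SD, and 4 fell and none rose in urea. The shares over all genes are those given with the regulators. With library totals 2 rose and 1 fell in SD, and 1 fell and none rose in urea, where 9.46% of all genes fell. OYE2, an NADPH oxidoreductase, fell by 1.79 ± 0.07 in RNA (adjusted p = 2.37e-19), and footprints of the drug exporter ATR1 fell by 1.55 ± 0.37 (adjusted p = 0.0151) and of the vacuolar glutathione conjugate transporter YCF1 by 1.21 ± 0.10 (adjusted p = 0.00017), all in urea relative to WT. GRE2, a methylglyoxal reductase, fell in RNA with urea in ∆ntd by 0.69 ± 0.11 (adjusted p = 1.06e-05).

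Of 20 general stress genes that Msn2 and Msn4 are known to control, other than CTT1, 10 rose and 7 fell in RNA in ∆ntd in SD (median 0.14) and 11 rose and 7 fell in urea (median 0.28). In footprints in urea 11 rose and none fell (median 0.60), against 5 and 5 in SD (median -0.20). With library totals 13 rose and 3 fell in RNA in SD and 13 and 2 in urea, and in footprints in urea 8 rose and 2 fell (median 0.32), beside 10.1% of all genes rising and 25.5% falling in those footprints. The RNA shares over all genes are those given with the redox list, and in footprints 17.9% of all genes rose and 15.1% fell in urea with TMM, and 3.67% and 5.54% in SD. The largest were DDR2, a stress protein (log2 2.94 ± 0.20, edgeR adjusted p = 0.000102), HSP12, a small membrane-associated heat shock protein (2.92 ± 0.25, adjusted p = 0.000189), SOL4, a 6-phosphogluconolactonase (2.39 ± 0.14, adjusted p = 5.42e-05), and XBP1, a stress-induced repressor (2.35 ± 0.17, adjusted p = 0.000134), all in footprints of ∆ntd over WT in urea. With urea in ∆ntd 16 of the 20 rose in footprints and 1 fell, and 16 rose in TE and none fell, beside 16.9% and 11.5% of all genes in footprints and 7.27% and 4.27% in TE, in comparisons that use the uneven ∆ntd urea libraries. With library totals 11 rose and 1 fell in footprints and 10 rose in TE, beside 6.05% of all genes rising and 39.3% falling in footprints and 2.38% and 17.0% in TE.

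Of the peroxisomal beta-oxidation genes, which produce the peroxide that Cta1 removes, 11 of 12 were tested in RNAseq. In ∆ntd relative to WT 1 rose and 2 fell in SD, and none rose and 2 fell in urea. With urea in ∆ntd none rose and 4 fell. Over all genes 17.5% rose and 19.3% fell in the first comparison, 21.5% and 22.4% in the second, and 13.4% and 12.8% in the third. With library totals the RNA counts between the strains turned to 5 rising and none falling in SD and 5 rising and 1 falling in urea, near the 46.5% and 50.3% of all genes that rose under that scaling. SPS19, a dienoyl-CoA reductase, fell by 2.12 ± 0.40 in RNA with urea in WT (edgeR adjusted p = 0.00011), and IDP3, peroxisomal isocitrate dehydrogenase, by 1.36 ± 0.40 with urea in ∆ntd (adjusted p = 0.0117). Footprints of POX1, acyl-CoA oxidase, fell by 2.12 ± 0.41 (adjusted p = 0.00941) and of POT1, the thiolase, by 1.42 ± 0.38 (adjusted p = 0.0281) with urea in ∆ntd, values that passed under 9 and 7 of 14 alternatives. These named changes rest on few counts. RNAseq counts were 25 and 41 in SD against 7 and 11 with urea for SPS19, and 34 and 29 against 12 and 10 for IDP3. Footprint counts were 16 and 21 against 3 and 2 for POX1, and 38 and 37 against 11 and 6 for POT1.

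CTT1, TSA2 and AHP1 had the group means that varied most, by a root mean square of 1.27, 0.644 and 0.503 on the log2 scale over the 8 groups (4 in each assay, each assay centred on its mean). The patterns most like theirs among 5250 other genes were those of GRE1 (root mean square difference 0.206) and the aldehyde dehydrogenase ALD3 (0.267) for CTT1, of YNL040W (0.183) and ICT1 (0.216) for TSA2, and of the S-adenosylmethionine synthetase SAM1 (0.112) and the serine hydroxymethyltransferase SHM2 (0.147) for AHP1. The points are means of 2 cultures in 8 groups that share their libraries, and the values are a description.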

How the data were processed

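The deposited table holds raw counts per gene, which the authors made with Cutadapt, Bowtie and Ribocount on RiboGalaxy: linkers and adapters were trimmed, noncoding RNA reads removed, and uniquely aligned reads counted on transcripts. The part of each transcript counted, the mismatches allowed and the read lengths kept are not given in the sources used here. The labels also name DESeq2; the authors' fold change and adjusted p columns were not used. Genes were tested with edgeR 4.0.16 (quasi-likelihood, filterByExpr and TMM within each assay, prior count 0.125, all 4 groups in the fit) and called at a Benjamini-Hochberg adjusted p under 0.05 over all genes tested. TE was tested in 1 fit over the 16 libraries, as the footprint change minus the RNA change, over genes that passed both filters. CTA1 passed the RNAseq filter only. With 2 cultures against 2 an exact permutation test cannot go below p = 0.333, so p-values come from the model. Fold changes of genes with few counts depend on the prior count. RNAseq and Riboseq libraries with 1 label number come from the same extract. Their deviations from the group means correlated by -0.026 to 0.028 over genes. A term for each culture changed no count of TE calls among the genes described here. Over all genes it lowered the counts, for instance from 803 rising and 528 falling to 752 and 477 between the strains in urea. For the difference in response, 14 and 18 became 0 and 0. Limits for a count of 0 cover counting error only, and reads carry no molecular identifiers. Alternatives were DESeq2 1.42.0, library totals, other filters, limma 3.58.1 voom with a variance for each group, a replicate block, only the groups compared, and leaving out each culture. All 10 genes are named; of each list, up to 4 genes with the largest called changes over the 4 pairwise comparisons are named; likeness is given for the 3 genes whose group means vary most. The genes and lists were chosen with earlier results of these data known. Proteins were aligned with Biopython 1.88 (BLOSUM62).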

Additional observations from a re-analysis of the deposited data

Results flagged for a closer look

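The urea response differed between the strains by the interaction term of the edgeR fit for 6 values of these genes. In RNA the response of ∆ntd minus that of WT was 1.25 for TSA2, 0.67 for CTT1, 0.46 for SOD2 and -0.34 for AHP1 on the log2 scale. For TSA2, CTT1 and SOD2 RNA fell with urea in WT, by 1.42, 1.23 and 0.20, while in ∆ntd the changes were -0.18, -0.56 and 0.26. For AHP1 the change was 0.32 in WT and -0.02 in ∆ntd. In footprints the difference was 1.19 for SOD1 and 1.14 for CTT1, where the changes were -0.20 and -1.32 in WT and 0.99 and -0.18 in ∆ntd. The SOD1 value moves with the 2 ∆ntd urea Riboseq libraries, at 3033 and 4789 CPM, and the part of these libraries in it was not tested beyond leaving each out.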

How the results depend on the processing

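Of the 51 changes past the threshold, 16 passed under every alternative tried and 48 kept their direction under all of them. The 3 exceptions had the other sign under library totals: RNA of TRX1 between the strains, 0.09 in SD and 0.02 in urea, and TE of CTT1 between the strains in urea, -0.03. Of the 759 values under alternatives, 622 passed in the same direction and 134 did not pass. By DESeq2 the number of genes called was 3 in place of 6 for RNA with urea in WT, 0 in place of 4 for the RNA difference in response, and 8 in place of 4 for footprints between the strains in urea. Over all genes DESeq2 called 561 rising and 363 falling, 110 and 150, and 928 and 836 in these comparisons. The main fit called 881 and 680, 241 and 333, and 945 and 796. With library totals it was 3 and 5 in place of 7 and 8 for RNA between the strains in SD and urea, 1 in place of 2 for TE with urea in ∆ntd, and 0 and 2 in place of 1 and 6 for TE between the strains. Over all genes, library totals gave 2550 rising and 431 falling in RNA in ∆ntd in SD, against 961 and 1057, and 215 and 2126 in TE in urea, against 803 and 528. With a variance for each group (limma voom) footprint calls were 3 in place of 5 with urea in ∆ntd, 3 in place of 1 between the strains in SD and 5 in place of 2 for the difference in response. TE calls were 5 in place of 1 between the strains in SD and 2 in place of 0 for the difference. Calls over all genes moved the same way. In footprints in SD 913 rose and 1088 fell, against 194 and 293. In TE in SD 611 rose and 570 fell, against 168 and 173, and for the difference 184 and 37, against 14 and 18. With only the groups compared, footprint calls were 0 with urea in ∆ntd, 3 between the strains in SD and 2 in urea. Over all genes these fits gave 53 rising and 62 falling, 1015 and 1023, and 375 and 337. TE calls were 0 with urea in ∆ntd and 6 between the strains in SD, beside 9 and 6, and 699 and 516, over all genes. Leaving out 1 culture at a time, calls ran from 0 to 4 for the RNA difference in response; in footprints from 1 to 4 with urea in WT, 0 to 7 with urea in ∆ntd, 1 to 4 between the strains in SD, 1 to 8 in urea and 0 to 8 for the difference; and in TE from 0 to 8 with urea in ∆ntd, 0 to 4 between the strains in SD and 0 to 6 for the difference. A group left with 1 culture is assumed to vary like the others, and calls over all genes moved in these fits as well. Where no cause follows from the alternative itself, the cause was not tested.

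The sample titles give a replicate number and no pairing of cultures across groups. Deviations of same-numbered libraries correlated by -0.358 between Riboseq of WT in SD and of ∆ntd with urea. All other pairs of groups lay between -0.038 and 0.063. The source of the -0.358 was not tested. With the replicate number as a block the footprint calls of these genes were 1 in place of 2 for the difference in response. They were 4 in place of 5 with urea in ∆ntd and 3 in place of 4 between the strains in urea. All RNA counts of these genes were as without it. For TE the block was a term for each culture, and the counts of these genes were also unchanged. The order of the genes by level in WT in SD was the same per coding kb and in CPM. At 0 to 5 footprint counts, CTA1 is limited by depth, as is TSA2 at 17 to 261.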
